A study of Mus musculus with 20 samples.

Results

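The genes of branched-chain amino acid use and uptake were followed in mouse gastrocnemius, a calf muscle made mostly of fast-twitch fibres. They were the 8 genes Bcat2, Bckdha, Bckdhb, Dbt, Bckdk, Ppm1k, Slc7a5 and Slc3a2, chosen by name from the 53311 rows of the deposited count table. Each of the 8 symbols was found in exactly 1 row, and all 8 passed the filter on low counts that left 13560 genes for testing. RNA was sequenced from 20 samples in 4 groups of 5. All mice carried the genotype Cre+:iMSBmal1 fl/fl, in which Cre can remove floxed Bmal1, the gene (symbol Arntl) of the circadian clock activator BMAL1. Mice had received either vehicle or the iMSBmal1KO treatment, and each of these sets was split into a resting and an exercised group. Muscles were collected at zeitgeber time 13, counted in hours from lights on, and the exercised mice had run 30 min on a treadmill 1 h earlier. The promoter driving Cre, the inducing agent, the age of the mice and whether each sample was 1 animal are not given in the sources used here. The p-values therefore measure the spread between these samples, which may be partly technical.

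Leucine, isoleucine and valine are taken into cells by system L, which comprises several carriers. Among these is a heterodimer of the light chain LAT1 (Slc7a5) and the heavy chain 4F2hc (Slc3a2). The light chain carries the amino acid, and the heavy chain brings the light chain to the plasma membrane. In mitochondria the aminotransferase BCAT2 removes the amino group, a reversible step for which skeletal muscle is a main site. The resulting keto acids are committed to oxidation by the branched-chain keto acid dehydrogenase complex, whose E1 component is built from the alpha and beta subunits encoded by Bckdha and Bckdhb and whose E2 core is encoded by Dbt. The kinase encoded by Bckdk phosphorylates the E1 alpha subunit and switches the complex off, and the mitochondrial phosphatase encoded by Ppm1k reverses this. KLF15, a transcription factor whose own RNA cycles with the clock in muscle, is known as an activator of Bcat2, and PGC-1alpha (Ppargc1a) as an activator of several genes of the pathway.

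The promoters were read first for short sequences through which clock and amino acid stress factors are known to act, since the comparisons concern a clock gene. The windows, from RefSeq on build GRCm38.p6, ran from 250 bases before to 50 bases after each annotated start. Of the 8 genes, 6 had an entry, and Slc7a5 and Dbt had none. The letters searched on both strands were the E-box CACGTG, bound by BMAL1 with its partner CLOCK, the D-box TTATGTAA or TTACGTAA, bound by DBP, and TGATGNAA, a core of amino acid response elements bound by ATF4. None of the 6 genes held a match, where 7.15% of 32851 mouse promoter windows held the E-box, 1.06% a D-box and 3.97% TGATGNAA. The Klf15 window held 3 E-boxes, starting at positions -228, -172 and -3 from the gene start. The window of Dbp, described below as a direct clock target, held no E-box. The absence of these letters says nothing about more distant sites, and what their presence does to RNA levels was not tested. The 250 bases before the start are printed 5′ to 3′ for Klf15 (chr6:90462326-90462575, plus strand), whose E-boxes are in capitals apart from the one that runs over the start, and for Bckdhb (chr9:83924887-83925136, plus strand) and Ppm1k (chr6:57535488-57535737, minus strand), whose RNA levels moved together across libraries.
Klf15: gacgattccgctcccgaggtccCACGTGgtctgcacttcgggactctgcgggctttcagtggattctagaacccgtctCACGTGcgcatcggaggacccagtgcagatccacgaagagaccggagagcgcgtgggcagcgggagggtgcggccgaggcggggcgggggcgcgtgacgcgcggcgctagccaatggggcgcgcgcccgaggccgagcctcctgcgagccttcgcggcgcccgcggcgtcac
Bckdhb: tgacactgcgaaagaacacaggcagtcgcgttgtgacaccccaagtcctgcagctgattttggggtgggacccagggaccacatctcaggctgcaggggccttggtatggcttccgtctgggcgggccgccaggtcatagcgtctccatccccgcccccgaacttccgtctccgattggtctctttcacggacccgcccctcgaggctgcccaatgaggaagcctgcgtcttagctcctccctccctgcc
Ppm1k: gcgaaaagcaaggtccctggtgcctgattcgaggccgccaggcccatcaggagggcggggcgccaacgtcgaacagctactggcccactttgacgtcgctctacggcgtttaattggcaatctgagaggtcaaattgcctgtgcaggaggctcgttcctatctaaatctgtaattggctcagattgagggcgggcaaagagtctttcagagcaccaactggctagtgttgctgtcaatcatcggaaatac

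The libraries held 8045154 to 11269812 counts each, and mitochondrially encoded genes took 7.55% to 14.96% of them. The summed level of 8 muscle fibre markers was 64725 to 102312 CPM in every library. CPM stands for counts scaled by TMM, the trimmed mean of M-values, to the same library size of 1e+06. As every mouse carried the same alleles, the inducing treatment itself and loss of Bmal1 cannot be told apart. Arntl was not lower in the samples labelled as knockout (log2 fold change 0.24 at rest, edgeR adjusted p = 0.725, and 0.20 after exercise, adjusted p = 0.689). Those samples are therefore called knockout-labelled, and every direction between treatments, given as knockout-labelled minus vehicle, rests on the label. A count over the whole gene may not report a deletion of some exons. Dbp, a direct clock target, was lower in knockout-labelled muscle, with log2 fold changes of -2.66 at rest (edgeR adjusted p = 2.8e-14) and -2.39 after exercise (edgeR adjusted p = 2.62e-13), although its exons overlap those of Sphk2 on the other strand. Slow-fibre content differed widely between libraries of the same group: the summed level of 7 slow-fibre markers ran from 75.8 to 2422 CPM in vehicle at rest, from 35.5 to 2344 in vehicle after exercise, from 211.2 to 3539 in knockout-labelled muscle at rest and from 48.3 to 2377 after exercise. None of the 7 passed the test in a comparison between groups. Of the markers of fat, blood, immune, endothelial, nerve and fibroblast cells, 1 passed, the haemoglobin gene Hba-a2, lower in knockout-labelled muscle after exercise (log2 fold change -1.90, SE 0.48, edgeR adjusted p = 0.0198). Its part in the results was not tested. In such bulk tissue fewer cells of a type and less RNA per cell cannot be told apart.

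Per kilobase of exon, Bckdha had the highest mean level over the 20 libraries, 76.1 CPM per kb, followed by Bckdk at 37.3, Bcat2 at 19.1, Bckdhb at 11.0, Dbt at 8.73, Slc3a2 at 5.87, Ppm1k at 2.10 and Slc7a5 at 0.811 CPM per kb. The value of Bckdha may include reads of B3gnt8, which overlaps 61.66% of its exon bases on the other strand. Exon lengths were those of the GENCODE annotation on GRCm38, which need not be the one used for counting. The ranges over libraries were 55.8 to 95.2 CPM per kb for Bckdha, 32.4 to 43.6 for Bckdk and 14.5 to 22.3 for Bcat2, with no overlap between them. Bckdhb (8.12 to 13.8) overlapped Dbt (6.51 to 11.9), Dbt overlapped Slc3a2 (4.10 to 9.66), and Ppm1k (0.996 to 3.39) overlapped Slc7a5 (0.335 to 1.80 CPM per kb), so the order of these neighbours lies within their spread. RNA of the inhibitory kinase thus stood far above RNA of the activating phosphatase in every library, whereas the light chain of the transporter stood below its heavy chain.

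**Figure D1:**
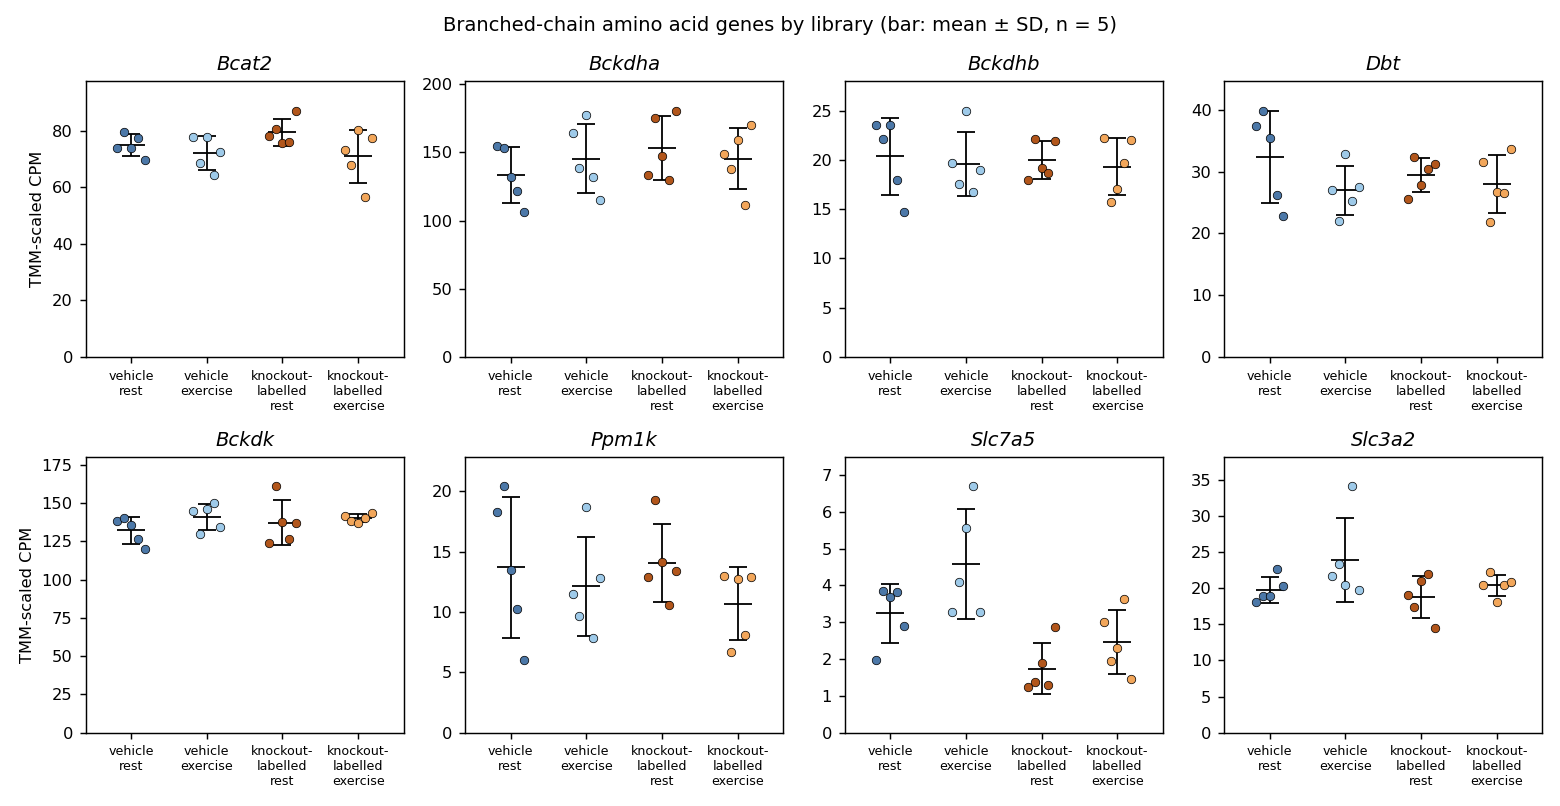
TMM-scaled CPM (vertical axes, from 0) of the 8 genes in each of the 20 libraries, by group (horizontal axis); points are libraries, and bars give the mean ± SD of 5. Groups overlap for every gene, Ppm1k spreads from 6.0 to 20.4 CPM within the vehicle group at rest, and Slc7a5 lies lowest in knockout-labelled muscle at rest.

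Of the 8 genes, none passed an edgeR adjusted p of 0.05 in the comparison of knockout-labelled with vehicle muscle at rest, where 3.86% of all genes tested passed (1.8% higher, 2.06% lower), or after exercise, where 6.42% passed (2.67% higher, 3.75% lower). None passed for exercise against rest in vehicle (0.804% of all genes, with 0.605% higher and 0.199% lower), for exercise in knockout-labelled muscle (0% of all genes) or for the difference between both exercise responses (0%). At an unadjusted p under 0.05 there was 1 gene at rest and 1 after exercise, Slc7a5 each time, and none in the other comparisons. Of all genes, 14.6% and 19.4% did so between treatments at rest and after exercise, 8.92% for exercise in vehicle, 4.71% in knockout-labelled muscle and 5.83% for the difference between responses. DESeq2 and limma-voom each called 1 of the 8 after exercise, also Slc7a5, and none elsewhere. The CPM ranges of the groups overlapped for all 8 genes in each of the 4 pairs of groups, where they did not overlap for 5.8%, 6.29%, 2.04% and 0.848% of all genes in the order given. The median log2 fold change of the 8 was 0.00 between treatments at rest and -0.02 after exercise, and 0.02 for exercise in vehicle and -0.06 in knockout-labelled muscle. Over all genes these medians were 0.01, 0.01, 0.00 and 0.00.

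Bcat2, the mitochondrial aminotransferase (chr7:45570153-45589711 on GRCm38), was among the steadiest of the 8. It stood at 74.0, 79.6, 73.9, 77.3 and 69.8 CPM in vehicle at rest and at 78, 80.6, 75.6, 75.9 and 87.1 CPM in resting knockout-labelled muscle. After exercise it stood at 77.7, 68.4, 77.9, 64.2 and 72.3 CPM in vehicle and at 73.1, 67.8, 80.2, 56.5 and 77.3 CPM in knockout-labelled muscle, where replicate 4 was the lowest of all libraries. Its log2 fold change between treatments was 0.08 at rest (95% interval -0.10 to 0.26) and -0.02 after exercise (-0.20 to 0.16). For exercise against rest it was -0.06 in vehicle (-0.24 to 0.13) and -0.16 in knockout-labelled muscle (-0.34 to 0.02). The intervals are those of single genes before adjustment. Exons of 0610005C13Rik, an antisense gene, cover 15.95% of the exon bases of Bcat2, and whether counting used strand is not given in the sources used here.

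Bckdha, the E1 alpha subunit (chr7:25629946-25658981), stood at 133.5 ± 20.7 CPM in vehicle at rest, 145.6 ± 25.4 in vehicle after exercise, 153.4 ± 23.5 in knockout-labelled muscle at rest and 145.6 ± 22.3 after exercise (SD, n = 5 each). The largest of its log2 fold changes was 0.20 between treatments at rest (95% interval -0.08 to 0.48, edgeR adjusted p = 0.55). Its count is uncertain. Besides the overlap with B3gnt8, the table holds 26633 counts of Bckdha and 22283 of B3gnt8, and over the 20 libraries B3gnt8 was the gene most like Bckdha (Pearson r = 0.94 of log2 CPM). Reads of both genes cannot be told apart unless the counting used strand.

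Bckdhb, the E1 beta subunit (chr9:83925145-84124240), stood at 20.4 ± 3.93 CPM in vehicle at rest, 19.6 ± 3.21 in vehicle after exercise, 20 ± 1.90 in knockout-labelled muscle at rest and 19.3 ± 2.95 after exercise (SD, n = 5 each). Its log2 fold changes lay between -0.06 and 0.01 in the 5 comparisons. Dbt, the E2 core (chr3:116513070-116549981), stood at 37.4, 39.9, 35.4, 26.2 and 22.9 CPM in vehicle at rest and at 27.1, 22, 32.9, 25.2 and 27.6 CPM in vehicle after exercise. The resting group alone already spanned nearly the whole range of the exercised group. The log2 fold change of Dbt with exercise in vehicle was -0.26 (95% interval -0.56 to 0.03, edgeR adjusted p = 0.63), and in knockout-labelled muscle it was -0.08 (-0.37 to 0.22). In knockout-labelled muscle Dbt stood at 29.5 ± 2.75 CPM at rest and 28.0 ± 4.63 CPM after exercise (SD, n = 5 each).

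The kinase and the phosphatase that set the activity of the complex differed in how much they varied. Bckdk (chr7:127904082-127910221) ran from 119.8 to 161.0 CPM over all 20 libraries, a 1.34-fold range, and stood at 132.2 ± 8.65 CPM in vehicle at rest, 141.0 ± 8.72 in vehicle after exercise, 137.3 ± 14.6 in knockout-labelled muscle at rest and 140.1 ± 2.58 after exercise (SD, n = 5 each). Ppm1k (chr6:57506502-57535468) ran from 6.0 to 20.4 CPM, a 3.41-fold range. It stood at 18.3, 20.4, 13.5, 10.2 and 6.0 CPM in vehicle at rest and at 11.5, 9.67, 18.7, 7.87 and 12.8 CPM in vehicle after exercise. In knockout-labelled muscle it stood at 12.9, 19.3, 14.1, 10.6 and 13.4 CPM at rest and at 13, 6.69, 12.7, 8.10 and 12.9 CPM after exercise. High and low libraries occurred in both vehicle groups, from 6.0 to 20.4 CPM at rest and from 7.87 to 18.7 CPM after exercise. In knockout-labelled muscle no resting library lay below 10.6 CPM. Every exercised library there lay below the resting median of 13.4 CPM, although the ranges of both groups overlapped. The largest log2 fold change of Ppm1k was -0.39, for exercise in knockout-labelled muscle (95% interval -1.0 to 0.22, edgeR adjusted p = 1). That interval reaches down to a level lower by 2-fold.

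The difference between Bckdk and Ppm1k in log2 CPM, a kinase to phosphatase ratio at the RNA level, was 3.37 ± 0.603 in vehicle at rest, 3.57 ± 0.467 in vehicle after exercise, 3.29 ± 0.184 in knockout-labelled muscle at rest and 3.74 ± 0.43 after exercise (SD, n = 5 each). Its range within vehicle at rest, 2.77 to 4.27, covered nearly that of all groups. The CPM of Bckdk was 6.88 times that of Ppm1k in vehicle replicate 2 at rest and 20 times in replicate 5 of the same group, values that are not corrected for gene length. Protein, phosphorylation and enzyme activity were not measured.

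Over the 6 genes from Bcat2 to Ppm1k, the 30 log2 fold changes lay between -0.39 and 0.20, with 95% bounds from -1.06 to 0.65. The smallest edgeR p among them was 0.0759 and the smallest adjusted p 0.55. The 95% intervals of Bcat2 and Bckdk stayed within -0.36 and 0.26 on the log2 scale in the 5 comparisons.

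**Figure D2:**
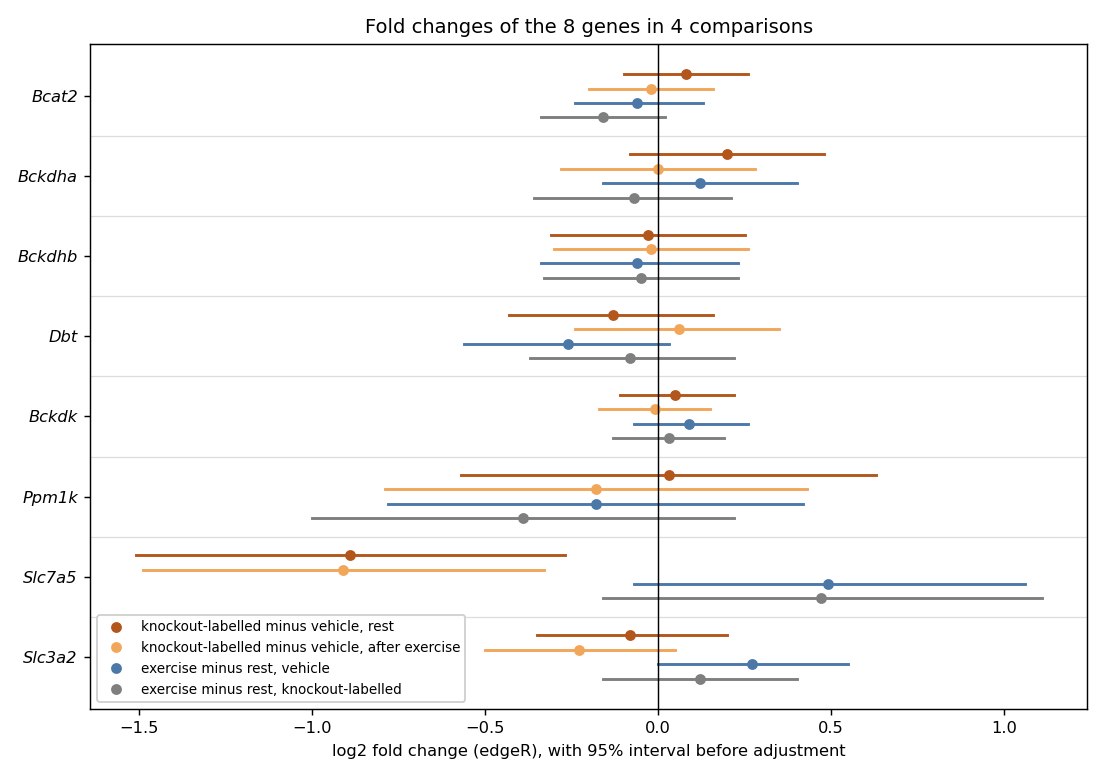
Log2 fold changes from edgeR (horizontal axis) with 95% intervals before adjustment for the 8 genes (vertical axis) in 4 comparisons, coloured by comparison. The intervals of Slc7a5 between knockout-labelled and vehicle muscle lie below 0, at -0.89 and -0.91, but did not pass the adjusted threshold, and those of the 6 enzyme and regulator genes include 0.

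Slc7a5, the light chain that carries the amino acid (chr8:121881150-121907694), was the least abundant of the 8, with 10 to 62 counts per library. At rest it stood at 1.97, 3.85, 3.68, 3.81 and 2.89 CPM in vehicle and at 1.24, 1.38, 1.88, 1.29 and 2.88 CPM in knockout-labelled muscle. In 4 of the 5 knockout-labelled libraries it was below every vehicle library. After exercise it stood at 3.28, 4.10, 5.56, 6.69 and 3.28 CPM in vehicle and at 3.01, 1.94, 2.30, 3.64 and 1.46 CPM in knockout-labelled muscle, where again 4 of the 5 libraries were below every vehicle library. Between treatments its log2 fold change was -0.89 at rest (95% interval -1.51 to -0.27, edgeR adjusted p = 0.114) and -0.91 after exercise (-1.49 to -0.33, edgeR adjusted p = 0.0544). Neither passed the threshold.

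The value after exercise lay close to that threshold. It passed in 7 of 21 refits, among them DESeq2 (adjusted p = 0.0279), limma-voom (adjusted p = 0.0448), no filter on low counts (edgeR adjusted p = 0.0451) and edgeR with the slow-fibre score as a covariate (adjusted p = 0.0289), and without vehicle replicate 1 (0.0459), vehicle replicate 5 (0.043) or knockout-labelled replicate 4 (0.0336). The adjusted p over the 21 refits ran from 0.0279 to 0.167 and the log2 fold change from -1.08 to -0.73. The weakest values, 0.167 and -0.73, both came from edgeR without vehicle replicate 4. At rest Slc7a5 passed in 1 of 21 refits, edgeR without knockout-labelled replicate 5 (log2 fold change -1.15, adjusted p = 0.041), and the adjusted p ran from 0.041 to 0.24. The direction was lower in knockout-labelled muscle in each of these refits. Under both treatments the level was higher after exercise than at rest without passing the test, with log2 fold changes of 0.49 in vehicle (edgeR adjusted p = 0.646) and 0.47 in knockout-labelled muscle (edgeR adjusted p = 1). The difference between these responses was -0.02, with a 95% interval from -0.94 to 0.91.

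Slc3a2, the heavy chain (chr19:8706882-8723369), stood at 18.1, 18.9, 18.9, 22.6 and 20.3 CPM in vehicle at rest and at 19.0, 17.4, 21.0, 21.9 and 14.5 CPM in resting knockout-labelled muscle. After exercise it stood at 21.7, 23.4, 20.5, 34.1 and 19.8 CPM in vehicle and at 20.5, 22.2, 18.1, 20.4 and 20.8 CPM in knockout-labelled muscle. Vehicle replicate 4 after exercise stood apart, and that library was also the highest for Slc7a5. Of all libraries it also held the highest summed levels of fat (93.6 CPM), blood (366.4 CPM) and nerve markers (128.1 CPM). The part of such cells in its values was not tested. The log2 fold change of Slc3a2 between treatments was -0.08 at rest (95% interval -0.35 to 0.20) and -0.23 after exercise (-0.50 to 0.05, edgeR adjusted p = 0.368). With exercise it was 0.27 in vehicle (edgeR adjusted p = 0.565) and 0.12 in knockout-labelled muscle (edgeR adjusted p = 1). The intervals of Slc3a2 between treatments overlapped those of Slc7a5, -1.51 to -0.27 at rest and -1.49 to -0.33 after exercise. The difference between both genes was not tested.

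Partner genes, 3 pairs of them, were compared by their deviations from the group means over the 20 libraries, with 100000 permutations and adjustment over the 3 pairs. Bckdha and Bckdhb, both chains of E1, varied together (Pearson r = 0.65, permutation p = 0.0022, adjusted p = 0.0066; Spearman rho = 0.645, permutation p = 0.00263, adjusted p = 0.00789). Without the 2 libraries farthest from the median of Bckdha, r was 0.689. Within the groups r was 0.888, 0.706, 0.971 and 0.174, the last in knockout-labelled muscle after exercise, and the overlap of Bckdha with B3gnt8 bears on this pair. The permutation p is against no correlation, not against that of other genes. Slow-fibre content, which differed widely between libraries, was not taken out of the deviations of the 3 pairs. Its part in their correlations was not tested. Without removal of group means, Bckdhb ranked 855 by r with Bckdha among 11723 genes with a mean log2 CPM of at least 1. Bckdha ranked 539 by r with Bckdhb, so many other genes were more like each of them.

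Bckdk and Ppm1k, the kinase and its opponent, also varied together over all libraries (r = 0.572, permutation p = 0.00796, adjusted p = 0.0119; rho = 0.589, permutation p = 0.0071, adjusted p = 0.0106). Without knockout-labelled replicate 2 and vehicle replicate 5, both at rest, r was 0.425 (permutation p = 0.0793, adjusted p = 0.117), so the call rests on those libraries, although r stayed positive. With scaling by library size alone, r over all 20 was 0.739 (permutation p = 0.00019, adjusted p = 0.000285). Within groups r was 0.984 in vehicle at rest, 0.0268 in vehicle after exercise, 0.916 in knockout-labelled muscle at rest and 0.408 after exercise. In the same ranking of genes without removal of group means, Ppm1k ranked 1231 for Bckdk and Bckdk ranked 1751 for Ppm1k. For both chains of the transporter, Slc7a5 and Slc3a2, r was 0.10 (permutation p = 0.68, adjusted p = 0.68; rho = 0.0346, permutation p = 0.887, adjusted p = 0.887). Without 2 libraries it was 0.383 (permutation p = 0.117, adjusted p = 0.117), and within groups it ran from -0.675 to 0.705.

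The genes most like each member over the 20 libraries were taken from 11723 genes with a mean log2 CPM of at least 1, as a description over libraries that each hold their own mixture of fibres and cells. Bckdhb was most like Dbt (r = 0.878), Lamtor3 (0.858) and Ppm1k (0.822). Dbt was most like Bckdhb (0.878), Prkg1 (0.845) and Hsd17b4 (0.827). Ppm1k was most like Acat1 (0.902), the mitochondrial acetoacetyl-CoA thiolase of isoleucine breakdown, Pdlim1 (0.899) and Acss2 (0.899). Bcat2 was most like Sdhd (0.866) and Atp5g3 (0.865), which encode parts of the respiratory chain and of ATP synthase, and Tmem86a (0.855). Besides B3gnt8, Bckdha was most like Slc25a11 (0.925) and Gabarapl1 (0.923). Bckdk was most like Map3k5 (0.828), Hspd1 (0.805) and Phyh (0.805). The transporter chains had lower values, with Zfp612 (0.816), Cerkl (0.779) and Tpbgl (0.777) for Slc7a5 and Magi1 (0.768), Nt5dc3 (0.754) and Ell2 (0.748) for Slc3a2.

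The 8 genes were also set against the slow-fibre score, the mean log2 CPM of Myh7, Myl2, Myl3, Tnnc1, Tnni1, Tnnt1 and Atp2a2, which ran from -0.42 to 8.65. The slope of each gene on this score, with 1 mean per group and all 13560 genes in the fit, was added after the data were seen. By edgeR, 5 of the 8 genes rose with the score and none fell, where 23.1% of all genes passed, 12.5% rising and 10.6% falling. The slope in log2 units per unit of score was 0.140 for Ppm1k (adjusted p = 0.000193), 0.061 for Dbt (0.00406), 0.056 for Bckdha (0.00361), 0.050 for Bckdhb (0.0212) and 0.034 for Bcat2 (0.00971). Bckdk did not pass (0.016, edgeR adjusted p = 0.265), nor did Slc7a5 (-0.033, adjusted p = 0.585) or Slc3a2 (-0.037, adjusted p = 0.11). Without vehicle replicate 2 and knockout-labelled replicate 4 after exercise, the libraries farthest from the median score, the same 5 genes passed and Slc3a2 fell with the score (-0.058, edgeR adjusted p = 0.0448). In that fit 1315 of the 13560 genes rose and 843 fell.

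In the 5 libraries with the lowest scores, from -0.42 to 2.69, Ppm1k stood at 6.0 to 9.67 CPM with a median of 7.87. In the 5 with the highest scores, from 7.94 to 8.65, it stood at 12.9 to 19.3 CPM with a median of 18.3. These sets of libraries do not overlap for Ppm1k or for Bcat2 (56.5 to 69.8 against 74.0 to 80.6 CPM), while they overlap for Dbt (21.8 to 26.5 against 25.6 to 37.4 CPM). How many of all genes did not overlap between these sets was not counted. The sets were drawn by the score used for the slopes, so they are no separate evidence. For Bckdk the medians were 138.3 and 143.5 CPM and the ranges overlapped. The difference between Bckdk and Ppm1k in log2 CPM was 3.71 to 4.32 in the 5 libraries with the lowest scores and 2.90 to 3.45 in the 5 with the highest. The 5 low libraries were vehicle replicate 5 at rest, and vehicle replicates 2 and 4 and knockout-labelled replicates 2 and 4 after exercise. Most of them were thus exercised, and none was resting knockout-labelled muscle. The median score was 6.94 at rest and 5.92 after exercise in vehicle, and 7.70 and 5.27 in knockout-labelled muscle. The score was not a group of the study and was not balanced over the exercise comparisons.

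**Figure D3:**
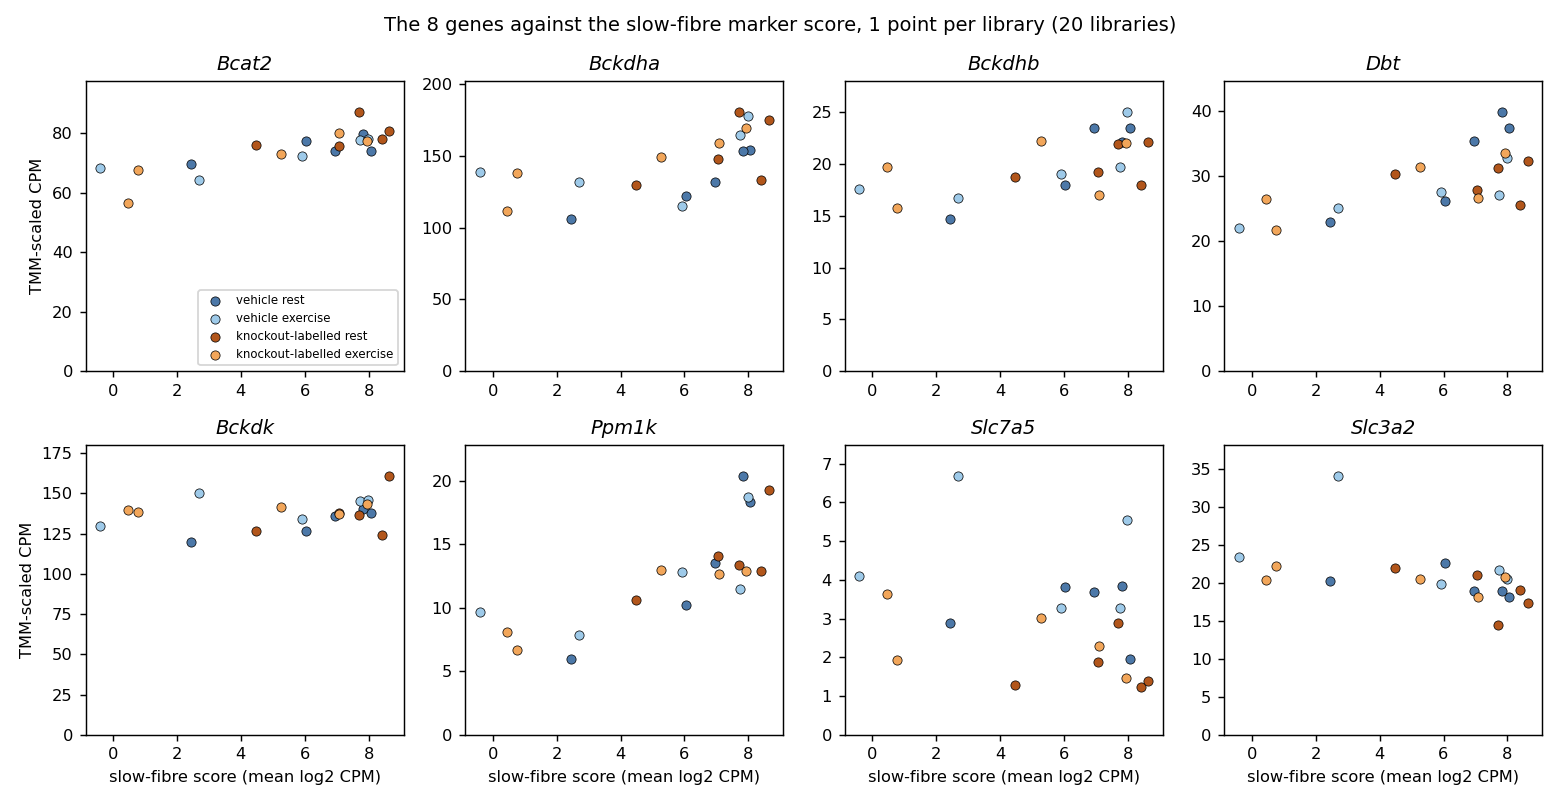
TMM-scaled CPM of the 8 genes (vertical axes, from 0) against the slow-fibre score, the mean log2 CPM of 7 markers (horizontal axes); each point is 1 of 20 libraries, coloured by group. Ppm1k climbs from 6.0 to 9.67 CPM in the 5 libraries with the lowest scores to 12.9 to 19.3 CPM in the 5 with the highest, and Bckdk stays level.

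With the score as a covariate, none of the 6 enzyme and regulator genes passed the adjusted threshold in a comparison between groups. The log2 fold change of Ppm1k at rest became -0.06 and that with exercise in vehicle 0.04, against 0.03 and -0.18 without the covariate. Both changed sign. For exercise in knockout-labelled muscle, where Ppm1k was -0.39 without the covariate, the value with it is not given here. Slc7a5 became -0.86 at rest (edgeR adjusted p = 0.0939) and -0.93 after exercise (edgeR adjusted p = 0.0289).

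The steps below the complex were represented by 20 genes, of which 19 were tested and Bcat1, the cytosolic aminotransferase, held at most 5 counts in a library. By edgeR, 1 of the 19 was higher and none lower in knockout-labelled muscle after exercise, where 2.67% of all genes were higher and 3.75% lower. None of the 19 passed in the other comparisons. At an unadjusted p under 0.05 there were 3 genes at rest, 3 after exercise, 1 for exercise in vehicle and 0 for the remaining comparisons. Of all genes, 14.6% did so at rest, 19.4% after exercise, 8.92% for exercise in vehicle and 4.71% and 5.83% in the remaining comparisons. The median log2 fold change of the 19 was 0.11 at rest and 0.07 after exercise between treatments, and -0.01 and -0.04 for exercise in vehicle and in knockout-labelled muscle. DESeq2 called Aldh6a1 also at rest, and it called Ivd beside Aldh6a1 after exercise.

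The gene that passed was Aldh6a1, which oxidises methylmalonate semialdehyde, an intermediate of valine breakdown. It ran from 150.7 to 184.6 CPM in vehicle after exercise, with a median of 165.3, and from 194.2 to 207.8 CPM in knockout-labelled muscle after exercise, with a median of 204.4. The groups did not overlap. That amounted to a log2 fold change of 0.28 (SE 0.079, edgeR adjusted p = 0.0327), and at rest it was 0.23 (SE 0.079, edgeR adjusted p = 0.132). The call was lost in 8 of 10 refits that left out 1 library, all but those without vehicle replicate 3 or knockout-labelled replicate 5, with adjusted p up to 0.105. It was also lost without a filter on low counts (edgeR adjusted p = 0.137) and with both groups alone in the fit (edgeR adjusted p = 0.0668). Exons of Bbof1 on the other strand cover 18.64% of its exon bases.

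On the slow-fibre score, 7 of these 19 genes rose by edgeR and none fell, where 12.5% of all genes rose and 10.6% fell. The 7 were Echs1 (0.119 per unit, adjusted p = 1.84e-06), Acat1 (0.110, 7.64e-06), Mcee (0.096, 0.00039), Hibch (0.072, 0.000141), Hibadh (0.052, 0.002), Dld (0.046, 0.00556) and Pcca (0.041, 0.0121). Without the 2 libraries farthest from the median score 9 rose by edgeR, as Pcca no longer passed (adjusted p = 0.111) and Ivd (0.0254), Auh (0.0464) and Mut (0.0472) did. Of all 13560 genes, 1315 rose and 843 fell in that fit. Echs1 and Acat1 also serve fatty acid and ketone metabolism, and Dld is the E3 component shared by the keto acid dehydrogenases.

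Transport of amino acids other than by the Slc7a5 and Slc3a2 dimer was covered by 12 genes, of which 11 were tested. By edgeR 1 was higher and 1 lower in knockout-labelled muscle, at rest and after exercise, the same 2 genes each time. Of all genes, 1.8% were higher and 2.06% lower at rest, and 2.67% and 3.75% after exercise. None of the 11 passed for exercise in vehicle, where 2 had an unadjusted p under 0.05, for exercise in knockout-labelled muscle (1 such gene) or for the difference between responses (0). Such a p was found for 8.92%, 4.71% and 5.83% of all genes, in that order. DESeq2 called Slc38a2 for exercise in vehicle and Slc7a8 after exercise between treatments besides, while limma-voom called no further gene.

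Slc7a2, which carries arginine and lysine, was the lower one. At rest it stood at 75.5, 81.8, 90.3, 57.2 and 68.4 CPM in vehicle and at 40.2, 33.6, 37.3, 44.0 and 24.7 CPM in knockout-labelled muscle. After exercise it stood at 86.2, 99.7, 107.7, 78.3 and 55.0 CPM in vehicle and at 30.1, 34.3, 22.8, 38.2 and 26.9 CPM in knockout-labelled muscle. The treatment groups did not overlap in either state. By edgeR the resting groups differed by -1.05 on the log2 scale (SE 0.18, adjusted p = 0.00105) and the exercised groups by -1.49 (SE 0.182, adjusted p = 2e-05), and the call held in each refit run.

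Slc38a4, a carrier of small neutral amino acids, was the higher one. At rest its level was 96.3 ± 26.6 CPM for vehicle against 222.2 ± 66.0 for knockout-labelled muscle, and after exercise 100.3 ± 33.3 against 222.6 ± 76.8 CPM (SD, n = 5 each). By edgeR the resting groups differed by 1.21 on the log2 scale (SE 0.282, adjusted p = 0.0197) and the exercised groups by 1.15 (SE 0.282, adjusted p = 0.0189). It fell with the slow-fibre score (-0.134 per unit, edgeR adjusted p = 5.03e-05), and with that score as a covariate it was 1.36 at rest (edgeR adjusted p = 3.85e-06) and 1.08 after exercise (4.08e-05). The call at rest was lost without vehicle replicate 1, 2 or 3, without knockout-labelled replicate 4 and without a filter (adjusted p up to 0.0578), and that after exercise without vehicle replicate 1 or knockout-labelled replicate 2 or 4 (up to 0.0612).

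**Figure D4:**
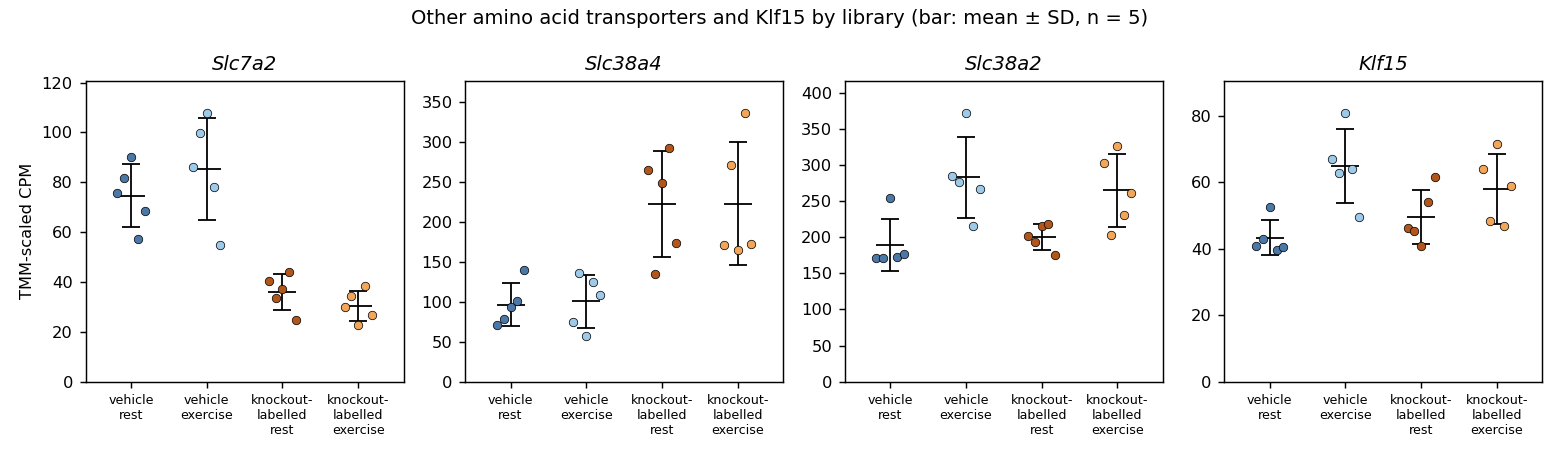
TMM-scaled CPM (vertical axes, from 0) of 3 amino acid transporters and Klf15 in each library by group (horizontal axis); points are libraries and bars the mean ± SD of 5. Slc7a2 is lower and Slc38a4 higher in knockout-labelled muscle in both states, and Slc38a2 and Klf15 stand highest in vehicle after exercise.

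Slc38a2, which brings in glutamine and other small neutral amino acids, stood at 189.3 ± 36.5 CPM at rest and 283.2 ± 56.2 CPM after exercise in vehicle, and at 200.7 ± 17.8 and 264.7 ± 50.5 CPM in knockout-labelled muscle (SD, n = 5 each). The log2 fold change was 0.58 in vehicle (edgeR adjusted p = 0.0543) and 0.40 in knockout-labelled muscle (edgeR adjusted p = 1), neither of which passed. It lies outside the naming rule and was chosen after its values were seen. On the slow-fibre score 2 transporters rose, Slc43a2 (0.187 per unit, edgeR adjusted p = 5.08e-05) and Slc38a1 (0.566, 4.95e-05), and 2 fell, Slc38a4 and Slc7a8 (-0.10, 0.00572). Of all genes, 12.5% rose and 10.6% fell. Without the 2 libraries farthest from the median score Slc7a8 no longer passed (-0.085, edgeR adjusted p = 0.0976) and Slc43a1 fell (-0.111, edgeR adjusted p = 0.00143). Slc38a1 held at most 21 counts in a library.

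Leucine is sensed upstream of the kinase mTORC1, and 12 genes of that route were tested. By edgeR none passed in any of the 5 comparisons, and neither did any by DESeq2 or limma-voom. At an unadjusted p under 0.05 there were 2 genes at rest and 1 after exercise between treatments, 1 for exercise in vehicle, 1 for exercise in knockout-labelled muscle and 1 for the difference. Of all genes, 14.6%, 19.4%, 8.92%, 4.71% and 5.83% did so in that order. The smallest p among the 12 was that of Flcn, a regulator of the Rag GTPases, which stood at 69.5 CPM at rest and 103.7 CPM after exercise in vehicle (log2 fold change 0.58, SE 0.173, edgeR adjusted p = 0.172).

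ATF4, the factor that responds to a lack of amino acids, and its targets were listed as 13 genes, of which 11 were tested, and Atf4 itself is also among the regulators counted last. Asns held at most 19 counts in a library and Trib3 at most 12, and these 2 were not tested. By edgeR 1 of the 11 rose with exercise in vehicle, where 0.605% of all genes did, and none of the 11 passed elsewhere. At an unadjusted p under 0.05 there were 2 genes at rest and 2 after exercise between treatments, 4 for exercise in vehicle, 1 for exercise in knockout-labelled muscle and 0 for the difference. The shares of all genes were 14.6%, 19.4%, 8.92%, 4.71% and 5.83% in that order. DESeq2 called Cebpb between treatments after exercise and Ddit4 and Cebpb for exercise in vehicle, and limma-voom called Cebpb alone. Cebpb, a transcription factor that is also induced by many other signals, rose from 92.0 ± 9.60 to 160.6 ± 30.1 CPM (SD, n = 5 each; log2 fold change 0.80, SE 0.168, edgeR adjusted p = 0.0219). Its call was lost without vehicle replicate 1, 2 or 5 at rest, without replicate 2 or 4 after exercise and without a filter on low counts (edgeR adjusted p up to 0.082), and 20.74% of its exon bases are shared with Tmem189 on the other strand.

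Regulators of the pathway were 6 genes, all tested. By edgeR 1 rose with exercise in vehicle and none passed elsewhere, with unadjusted p under 0.05 for 1 gene at rest and 3 after exercise between treatments, 3 for exercise in vehicle, 1 for exercise in knockout-labelled muscle and 0 for the difference. Of all genes, 0.605% rose with exercise in vehicle by edgeR. The shares at an unadjusted p under 0.05 were 14.6%, 19.4%, 8.92%, 4.71% and 5.83% in the order given. Klf15 (chr6:90462576-90475238), the E-box gene printed above, stood at 40.9, 42.8, 52.6, 39.6 and 40.6 CPM in vehicle at rest and at 66.9, 62.6, 80.7, 64.0 and 49.6 CPM in vehicle after exercise. All but 1 exercised library were above every resting one. The log2 fold change was 0.58 (SE 0.135, edgeR adjusted p = 0.0397), a call that was lost in 8 of 10 refits without 1 library, all but those without replicate 3 at rest or replicate 5 after exercise, and under upper quartile scaling, library size scaling, limma-voom, non-robust dispersions, a stricter filter or a fit of both groups alone (adjusted p up to 0.166). In knockout-labelled muscle Klf15 stood at 49.5 ± 8.23 CPM at rest and 57.8 ± 10.5 CPM after exercise (SD, n = 5 each; log2 fold change 0.22, edgeR adjusted p = 1). The difference between these responses was -0.36 (95% interval -0.75 to 0.04, edgeR adjusted p = 0.871). Between treatments it was 0.19 at rest (edgeR adjusted p = 0.568) and -0.16 after exercise (edgeR adjusted p = 0.554), and neither passed.

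Ppargc1a stood at 46.0 ± 21.8 CPM at rest and 116.1 ± 94.7 CPM after exercise in vehicle (SD, n = 5 each), where exercised libraries ran from 36.0 to 267.6 CPM around a median of 71.8. The log2 fold change of 1.33 (SE 0.562, edgeR adjusted p = 0.461) became 0.76 (edgeR adjusted p = 0.791) without replicate 3 after exercise, the highest library. In knockout-labelled muscle it stood at 56.1 ± 21.2 and 72.9 ± 45.4 CPM (SD, n = 5 each; log2 fold change 0.38, SE 0.555, edgeR adjusted p = 1). It rose with the slow-fibre score (0.268 per unit, edgeR adjusted p = 0.000505), as did Ppara (0.386, 4.07e-05) and Esrra (0.059, 0.00627), both transcription factors of oxidative metabolism. With the score as a covariate the exercise difference of Ppargc1a in vehicle was 1.54 (edgeR adjusted p = 0.0252).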

How the data were processed

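Total RNA, per the labels' protocols, came from Trizol followed by Qiagen columns, and an Illumina kit served for the libraries. The submitters' processing notes name Partek, STAR 2.7.8a and DESeq2 and the builds mm10 and GRCm39. Annotation, strandedness and counting settings are not given in the sources used here. The authors deposited 1 table of whole-number gene counts for 20 samples, whose totals differ between samples. Of its rows, 211 carry a repeated symbol and 27 a date in place of one, none a member.

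Groups came from the treatment labels. The knockout exercise samples are described as trained in 1 label and as acutely exercised in their titles and treatments, and were taken as the latter.

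Genes were filtered (filterByExpr, minimum of 10 counts), scaled by TMM and tested by edgeR 4.0.16 quasi-likelihood in R 4.3.3 with 1 mean per group over all 20 samples, with 5 contrasts and Benjamini-Hochberg adjustment over 13560 genes at 0.05. SE came from the F statistic. Log2 CPM used a prior count of 2. DESeq2 1.42.0 and limma 3.58.1 (voom) were alternatives, as were other scalings, filters, covariates and each sample left out. Scripts were tested on simulated data. SE and intervals cover counting error and the spread between samples as estimated in the fit.

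The 8 genes, the other gene lists and the tests were chosen with earlier results of these data known. Named were the 8 genes, the called genes of each list (at most 5 by p, otherwise that of smallest p), the 3 genes most like each member, Arntl, Dbp, Klf15 and Ppargc1a. The slope on the slow-fibre score was chosen after seeing the data. The lists of fibre and cell markers were read only as summed levels, calls and that score.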

Additional observations from a re-analysis of the deposited data

Results flagged for a closer look

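Slc3a2 in vehicle after exercise had 1 library far from the others. Replicate 4 stood at 34.1 CPM, while the other 4 lay between 19.8 and 23.4 CPM, so that its gap to the nearest took 0.744 of the group's range, above the critical 0.710 for 5 samples. This was the sole such library among 32 groups of values, 4 for each of the 8 genes, and chance alone marks about 1 group in 20. Vehicle replicate 4 after exercise also held the highest fat, blood and nerve marker sums of all libraries.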

How the results depend on the processing

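Of 947 refits of the 40 log2 fold changes of the 8 genes, 872 kept direction and side of the threshold, 67 changed sign without a call in either fit, and 8 passed the threshold where the reported value did not, all of them Slc7a5. The number of the 8 genes called between treatments after exercise was 1 instead of 0 under DESeq2, limma-voom, no filter on low counts and the slow-fibre covariate, and it ran from 0 to 1 when 1 library was left out, as it did at rest. Sign changes were not all small, as Ppm1k at rest between treatments, reported as 0.03, ran from -0.16 to 0.22 with 1 library left out. With library size scaling the values after exercise between treatments were 0.02 for Bcat2, 0.01 for Bckdhb and 0.02 for Bckdk, and that of Bckdha, reported as 0.00, was 0.00 with RLE size factors, a stricter filter or no mitochondrially encoded genes and -0.01 without a filter. The slow-fibre covariate gave -0.06 for Ppm1k at rest and 0.01 for Bckdhb after exercise between treatments, 0.02 for Bckdhb and 0.04 for Ppm1k for exercise in vehicle, and 0.08 for Bckdha, 0.09 for Bckdhb and 0.09 for Dbt for exercise in knockout-labelled muscle. Limma-voom gave -0.01 for the difference in response of Bckdhb. With 1 library left out, the ranges that crossed 0 between treatments at rest were -0.13 to 0.03 for Bckdhb, -0.02 to 0.09 for Bckdk, -0.16 to 0.22 for Ppm1k, -0.14 to 0.01 for Slc3a2. After exercise they were -0.08 to 0.05 for Bcat2, -0.07 to 0.08 for Bckdha, -0.08 to 0.07 for Bckdhb, -0.04 to 0.01 for Bckdk, -0.03 to 0.13 for Dbt, -0.30 to 0.02 for Ppm1k. For exercise they were -0.16 to 0.00 for Bckdhb, -0.39 to 0.01 for Ppm1k in vehicle and -0.14 to 0.01 for Bckdha, -0.11 to 0.02 for Bckdhb, 0.00 to 0.09 for Bckdk, -0.16 to 0.00 for Dbt in knockout-labelled muscle. For the difference in response they were -0.05 to 0.11 for Bckdhb, -0.10 to 0.01 for Bckdk, -0.40 to 0.00 for Ppm1k, -0.23 to 0.01 for Slc3a2, -0.19 to 0.24 for Slc7a5. The correlation of Bckdk with Ppm1k was 0.425 without 2 libraries. The count over all genes for exercise in vehicle ran from 52 without vehicle replicate 5 at rest to 135 without replicate 5 after exercise, and from 61 with both groups alone to 248 with the slow-fibre covariate. That covariate gave 845 genes at rest and 1415 after exercise between treatments, and a fit of both groups alone gave 567 after exercise. The causes were not tested. Slc7a5 had 10 to 62 counts per library, which limits its precision.

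The replicate numbers were checked for pairing. Correlations of the deviations of samples with the same number ran from -0.448 to 0.437 and were not all above 0.1 in any pair of groups, so the numbers were not taken to pair the samples. With the replicate block, 0 of the 8 genes were called in each comparison, Bckdha between treatments after exercise was 0.00, and Slc7a5 was -0.87 at rest and -0.88 after exercise. Of the calls named for other genes, that of Cebpb for exercise in vehicle was lost (0.81, edgeR adjusted p = 0.0552). Not every sample correlated best with its own number.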
